A study of Mus musculus with 3 samples.

Results

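The forkhead, SOX, KLF and GATA transcription factors of 4T1 cells were described in 3 messenger RNA sequencing libraries. 4T1 is an established mouse mammary carcinoma line, and the cells had been made to over-express WISP2, a secreted matricellular protein. All 3 libraries carry the genotype label WISP2 OE, so they form 1 group; the empty-vector controls that the design text names were not used here, and nothing below is an effect of WISP2. The protocol on the labels describes constructs of Wisp1 and not that of WISP2; it has a packaged lentiviral vector and selection of the tumour cells in 5 µg/mL puromycin, with thawed cells kept between passages 2 and 15. Wisp2 itself stood at 429, 384 and 454 CPM (counts scaled to the library's total) in the libraries C1, C2 and C3. The members were chosen by symbol alone: Fox with a letter from a to s and a number, Sox with a number, Klf with a number, and Gata1 to Gata6. This gave 85 of the 34591 genes of the table, of which 43 were Fox, 19 Sox, 17 Klf and 6 Gata genes. Symbols outside this pattern, such as Foxf1a, were left out of the counts.

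Forkhead factors bind DNA through a winged-helix domain, and several of them open chromatin or answer to growth factor signalling. SOX factors bind the minor groove through an HMG box and bend DNA; they set and hold cell identity, often with a partner factor. Krüppel-like factors (KLF) carry C-terminal zinc fingers that bind GC-rich and CACCC sites, and either activate or repress, whereas GATA factors recognise the letters GATA through a different kind of zinc finger. In the mammary gland, GATA3 and FOXA1 are known as factors of the luminal, hormone-receptive lineage, and SOX9 and FOXC1 as factors of progenitor and basal-like cells.

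C1 was the shallowest library with 17630755 counts, C3 had 47577315 and C2 the most with 67028365. Taken as C1, C2 and C3, 1 count was worth 0.0567, 0.0149 and 0.0210 CPM. A gene without counts is compatible with up to 3 counts, or 0.170, 0.0448 and 0.0631 CPM; such limits, and the 95% Clopper-Pearson intervals given below for single libraries, cover counting error only. The libraries are named after the suffixes of their columns, which carry no order and could not be tied to single samples. No source says whether they came from separate cultures, so the spread between them may be technical. The epithelial markers Krt8, Krt18, Krt7, Krt19, Cdh1, Epcam, Cldn4 and Cldn7 all reached 1 CPM in every library. Their summed level was 3599, 3649 and 3946 CPM.

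Of the 85 members 36 (42.4%) reached 1 CPM in every library, which is called detected below, and 29 (34.1%) had 0 counts in all libraries. Among all genes, 33.8% were detected and 45.7% had no count; over the genes that RefSeq lists as protein-coding under the same symbol, which include all members, these shares were 51.7% and 29.8%. The share for the members lies between these backgrounds, and the difference from either was not tested. A level of 10 CPM in every library was reached by 25 of the 85 members, beside 26.4% of all genes. The share over protein-coding genes was not computed at this level, and the difference was not tested. The counts differed by family. Of the Klf genes 12 of 17 (70.6%) were detected and 2 had no count. Of the Fox genes 16 of 43 (37.2%) were detected and 16 had no count. Of the Sox genes 6 of 19 (31.6%) were detected and 8 had no count, and of the Gata genes 2 of 6 (33.3%) were detected and 3 had no count. Some members lay close to the threshold of 1 CPM, and the Sox count depended on it. At 0.5 CPM 7 Sox genes were detected, and at 5 CPM 3. Judged by their lowest library, the members just over it were Sox13 (1.61 CPM), Klf8 (1.79 CPM), Foxa1 (1.88 CPM) and Gata4 (8.62 CPM), and those just under it were Foxq1 (0.567 CPM), Sox21 (0.510 CPM), Klf1 (0.328 CPM) and Gata2 (0.284 CPM).

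**Figure D1:**
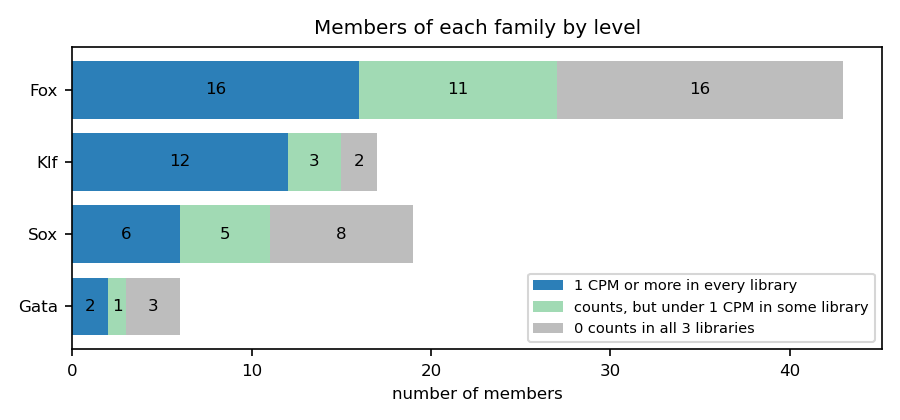
Number of members of each family (x axis) that reached 1 CPM in every library, had counts but stayed under 1 CPM in some library, or had 0 counts in all 3 libraries. The Klf bar is mostly detected (12 of 17), whereas the Fox, Sox and Gata bars are mostly undetected.

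The summed level of the families was ordered in the same way in each library. The Fox genes summed to 808, 808 and 822 CPM in C1, C2 and C3, the Klf genes to 545, 562 and 579.6 CPM, the Sox genes to 277, 274 and 283 CPM and the Gata genes to 73.3, 67.9 and 74.2 CPM. Longer transcripts give more reads, so levels of different genes are compared below as TPM, each count divided by exon length and scaled to the same total in every library. On that scale the Fox sum was 388 ± 3.71 (SD, n = 3), the Klf sum 352 ± 10.3, the Sox sum 181 ± 2.32 and the Gata sum 53.4 ± 2.36 TPM. The Fox sum exceeded the Klf sum by only 0.14 ± 0.03 on the log2 scale in TPM, or 1.10-fold, though in 3 of 3 libraries, and exceeded the Sox sum 2.14-fold and the Gata sum 7.27-fold. No p is given for these ratios, since the smallest that an exact test by sign flips (two-sided) allows with 3 libraries is 0.25. The families differed in how far they rested on 1 gene. In TPM, Gata3 made up 86.8% ± 0.70 of the Gata sum, Sox4 71.8% ± 1.29 of the Sox sum and Klf6 43.1% ± 1.00 of the Klf sum. Foxk2, the Fox gene with the highest mean TPM, made up only 22.9% ± 0.43 of the Fox sum.

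**Figure D2:**
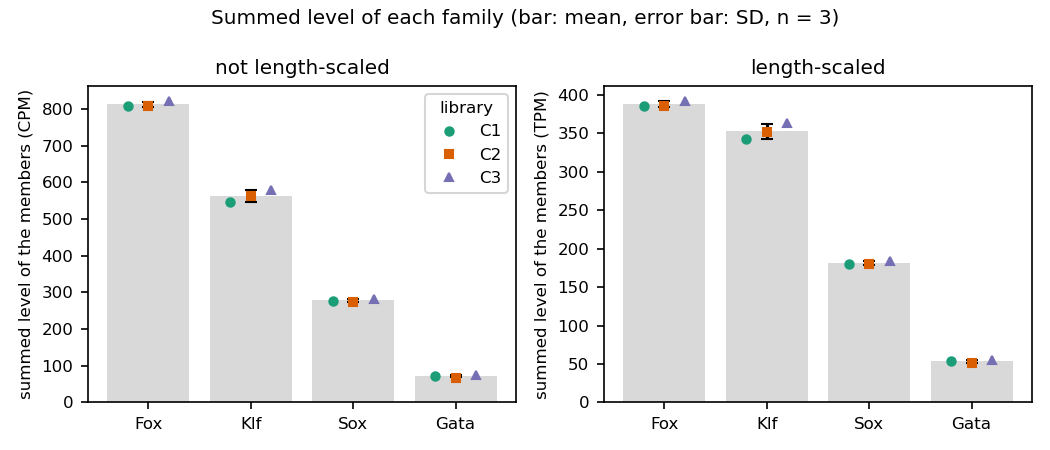
Summed level of all members of each family in CPM (left) and TPM (right); bars are means over 3 libraries, error bars the SD, and points the libraries. The gap between Fox and Klf narrows from 812 against 562 CPM to 388 against 352 TPM.

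Among the forkhead subfamilies, the FOXK pair had the highest summed level per length, followed by Foxm1 alone, the FOXP genes and the FOXO genes. Foxk2, which with Foxk1 is known for the control of metabolism and autophagy, stood at 160.1, 157.0 and 156.8 CPM. Foxm1, which drives mitotic genes, stood at 171, 158 and 167 CPM. Per length these were the highest forkhead members, at 88.8 ± 0.97 and 85.1 ± 3.2 TPM. Foxk2 lay 0.06 ± 0.05 above Foxm1 on the log2 scale in TPM, but 0.18 ± 0.05 below it when the longest single transcript served as the length, so their order is not set by these data. Foxp4 (39.5 ± 1.66 TPM), Foxk1 (30.1 ± 0.76 TPM), Foxn2 (28.5 ± 1.26 TPM), Foxo4 (19.5 ± 0.26 TPM), Foxc1 (16.7 ± 0.47 TPM) and Foxj3 (15.6 ± 0.56 TPM) followed. Each of these lay above the next by more than the SD of their log2 ratio in 3 of 3 libraries, except that Foxk1 and Foxn2 were apart by 0.08 ± 0.09, less than the spread.

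The FOXO factors, which AKT phosphorylates and keeps out of the nucleus when growth factors are present, were all low to moderate. Foxo3 stood at 34.8, 34.3 and 36.7 CPM, Foxo4 at 22.7, 23.0 and 23.3 CPM and Foxo1 at 18.2, 20.7 and 21.3 CPM, whereas Foxo6 had 1, 3 and 7 counts. Per length Foxo4 was the highest of them, and Foxo3 exceeded Foxo1 by 1.01 ± 0.11 on the log2 scale (2.01-fold). Foxm1, which opposes FOXO factors at shared sites, exceeded Foxo3 by 2.63 ± 0.06 (6.17-fold). The whole FOXO subfamily summed to 40.2 ± 1.18 TPM against 118.9 ± 0.24 TPM for the FOXK pair and 85.1 ± 3.2 TPM for Foxm1 alone. Of the FOXP factors, repressors that pair with one another, Foxp1 stood at 53.9, 60.8 and 57.9 CPM and Foxp4 at 64.6, 63.8 and 69.2 CPM. Foxp1 lay 1.68 ± 0.11 below Foxp4 on the log2 scale per length, and 1.04 ± 0.11 below it with the longest transcript as the length, which moves the ratio by more than 1.5 times; it was lower in 3 of 3 libraries either way. Foxp2, known from the developing brain, had 0 counts, and Foxp3, the factor of regulatory T cells, had 1, 0 and 2 counts. In the T cell marker list Cd3e, Cd3g, Cd4 and Cd8a were at 0 counts and Il2ra had 2, while Lck stood at 3.27 ± 0.17 CPM. Exons of Foxp3 overlap those of Ccdc22 and Ppp1r3f on the opposite strand, so its few reads cannot be assigned with certainty.

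The FOXC pair, known from mesoderm and, for FOXC1, from basal-like breast cancer, was present. Foxc1 stood at 32.4, 32.7 and 34.2 CPM and Foxc2 at 7.997, 7.73 and 9.10 CPM, a ratio per length of 0.90 ± 0.09 on the log2 scale (1.87-fold). Both genes sit in small clusters of forkhead genes. In the RefSeq gene order of chromosome 13, Foxq1, Foxf2 and Foxc1 follow each other with no protein-coding gene between them. Per length Foxq1 stood at 0.378 ± 0.045 TPM beside 16.7 ± 0.47 TPM for Foxc1, and Foxf2 had 1 count in all, in C2. On chromosome 8, Foxl1 is the next protein-coding gene after Foxc2 and stood at 1.13, 0.567 and 0.673 CPM. Foxf1a, listed by RefSeq as Foxf1, lies on the other side of Foxc2 with 1 gene between; it is outside the symbol pattern and stood at 3.52, 3.46 and 4.65 CPM. Exons of Foxq1 overlap the antisense gene A530084C06Rik over 66.1% of their length, and that gene had 1 count in all. The strand setting of the counting is not given in the sources used here. Reads from that overlap therefore cannot be assigned with certainty, and the level of Foxq1 may be affected.

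Foxa1, the pioneer factor of the luminal lineage, was low, at 2.04, 1.88 and 2.21 CPM (1.81 ± 0.14 TPM), the lowest detected forkhead gene per length. Foxa2, the endodermal member, had none, and Foxa1 was at least 8.55-fold higher per length, taking 3 counts per library as the floor; Foxa3 had 0, 1 and 2 counts. Foxj1, the master factor of motile cilia, stood at 3.74, 5.10 and 4.29 CPM. Of the 5 ciliated cell markers examined Dnaic1, Tekt1 and Spag6 had 0 counts, Rsph1 had 8 and Ccdc39 had 39 in all. The ovarian gene Foxl2 had 0 counts, and the thymic gene Foxn1 had 1, 0 and 1. Beside Foxa2 and Foxp2, the forkhead genes without a count included Foxb1, Foxb2, Foxd1, Foxd3, Foxe1, Foxe3, Foxi1, Foxi2, Foxi3, Foxr1, Foxr2 and Foxs1. Foxd2, Foxd4, Foxh1 and Foxn4 had counts but stayed under 1 CPM, and Foxj2 and Foxn3 complete the 16 detected.

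**Figure D3:**
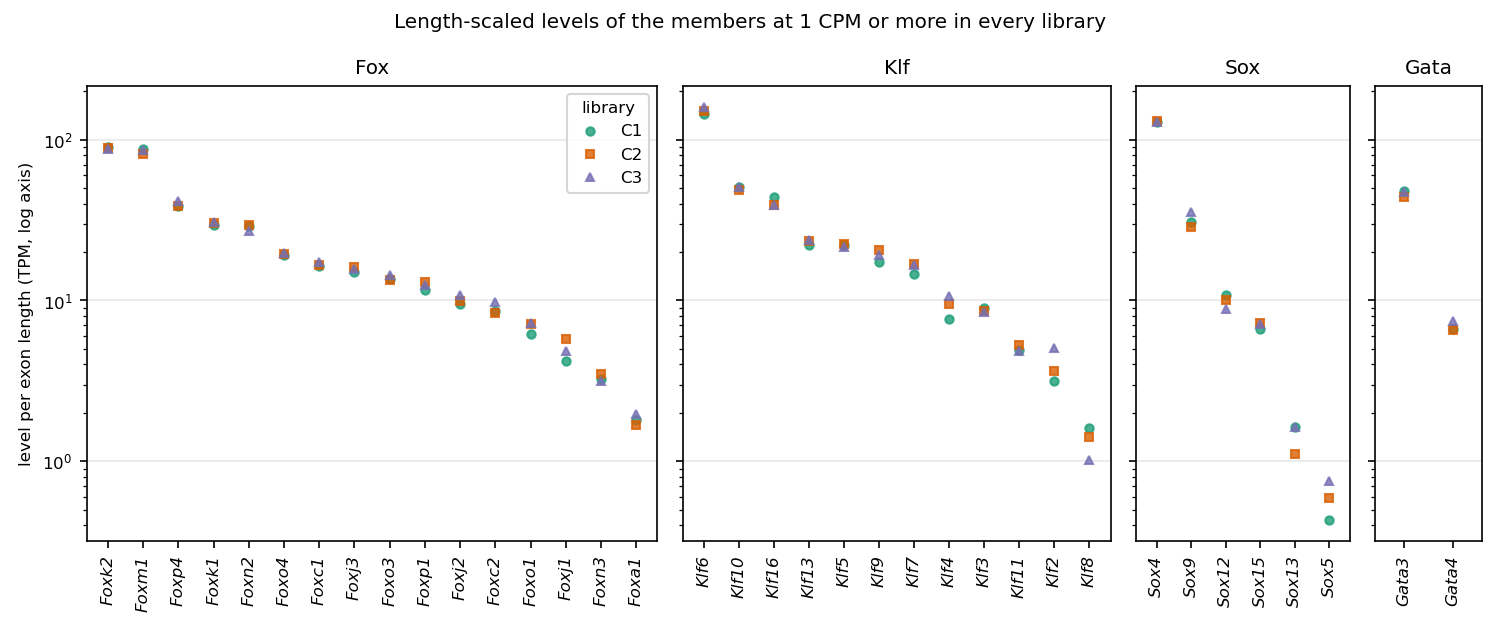
Length-scaled level (TPM, logarithmic axis) of the 36 members that reached 1 CPM in every library, by family and in falling order of their means; each marker is 1 library. Klf6 (152 TPM) and Sox4 (130.1 TPM) are the highest, and the 3 markers of a gene lie close together except for low members such as Sox5 and Klf2.

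The Krüppel-like factors were the family with the largest share of detected genes, and members of all 3 of their functional groups were present. Klf6, a widely expressed activator of the second group, stood at 215, 224 and 239 CPM and was the highest of all members at 152 ± 8.0 TPM, 3.03-fold above Klf10 per length and 2.29-fold with the longest transcript. Klf10 (71.6, 68.9 and 72.4 CPM; 50.2 ± 1.13 TPM) is known as an early target of TGF-beta and, like Klf16 (40.0, 35.1 and 35.8 CPM; 40.9 ± 2.83 TPM) and Klf13 (56.3, 59.5 and 61.1 CPM; 23.1 ± 0.96 TPM), belongs to the group that binds the corepressor Sin3A. That group summed to 138 ± 0.80 TPM with 5 of 6 members detected, the group of activators to 204 ± 11.2 TPM with 5 of 6, and the CtBP-binding repressors Klf3, Klf8 and Klf12 to 10.2 ± 0.56 TPM with 2 of 3.

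Klf5 and Klf4 are known for opposite effects on epithelial growth, the first promoting and the second restraining it. Klf5 stood at 38.9, 39.6 and 38.1 CPM and Klf4 at 7.94, 9.73 and 10.97 CPM. Per length Klf5 exceeded Klf4 by 1.27 ± 0.25 on the log2 scale (2.40-fold), and by 1.89 ± 0.25 with the longest transcript as the length, a shift of more than 1.5 times. Klf2, which together with Klf4 is known from endothelium, stood at 1.99, 2.27 and 3.19 CPM, so that Klf6 exceeded it by 5.28 ± 0.27 on the log2 scale per length (38.8-fold). The levels of Klf13 and Klf5 (0.07 ± 0.07), of Klf4 and Klf3 (0.08 ± 0.29) and of Klf11 and Klf2 (0.37 ± 0.38) did not differ beyond the spread of their log2 ratio in TPM. Klf1, the erythroid factor, had 7, 22 and 16 counts (0.354 ± 0.038 CPM) and its partner Gata1 had none. In the erythroid marker list Hba-a1, Hbb-b1 and Alas2 had 0 counts, and Epor and Slc4a1 had 3 and 2. Klf14 and Klf15 had 0 counts and Klf17 had 2. Klf5 and Klf12 are neighbours on chromosome 14 with no protein-coding gene between them, and Klf12 stood at 0.421 ± 0.136 CPM. Klf7 (40.2, 46.1 and 46.0 CPM) shares 39.3% of its exon length with the gene Gm26649 on the opposite strand. Unlike the antisense gene of Foxq1, Gm26649 is not listed among the genes counted. The library kit preserves strand, but the strand setting of the counting is not given in the sources used here, so reads of such pairs cannot be told apart.

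Of the SOX factors, Sox4 stood far above the rest. It is a SoxC factor, active in many embryonic tissues and known in carcinoma cells as a target of TGF-beta. Sox4 was at 210.7, 211.7 and 210.7 CPM (130.1 ± 0.83 TPM). Its exons overlap the antisense gene Gm26735 over 54.6% of their length, with the same reservation on strand as for Klf7. Gm26735 is likewise not listed among the genes counted. Of the other SoxC genes Sox12 stood at 16.3, 15.0 and 13.4 CPM, and Sox11 had none. Taking 3 counts per library as the floor, Sox4 was at least 2146-fold higher than Sox11 per length.

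The bases before the start site of these 3 paralogs, and those of the chromosomal neighbours Foxc1 and Foxf2, are shown because the members of each set differ so much in level. The sequences are RefSeq's for GRCm38.p6, another build than the mm9 that the submitters name, run over 250 bases from 5′ to 3′ on the gene's strand, and end just before the start site. Capitals mark CCAAT, a box found in many promoters, and GGGCGG, the GC box that SP and KLF factors can bind, on either strand. The windows are chr13:28953700-28953949 (minus strand) for Sox4, chr12:27342719-27342968 (minus) for Sox11, chr2:152398047-152398296 (minus) for Sox12, chr13:31806396-31806645 (plus) for Foxc1 and chr13:31625566-31625815 (plus) for Foxf2.
Sox4: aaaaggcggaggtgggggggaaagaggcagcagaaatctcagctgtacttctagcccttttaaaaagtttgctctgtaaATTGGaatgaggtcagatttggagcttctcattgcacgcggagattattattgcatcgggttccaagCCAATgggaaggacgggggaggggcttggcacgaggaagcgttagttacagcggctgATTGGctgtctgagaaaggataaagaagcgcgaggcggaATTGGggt
Sox11: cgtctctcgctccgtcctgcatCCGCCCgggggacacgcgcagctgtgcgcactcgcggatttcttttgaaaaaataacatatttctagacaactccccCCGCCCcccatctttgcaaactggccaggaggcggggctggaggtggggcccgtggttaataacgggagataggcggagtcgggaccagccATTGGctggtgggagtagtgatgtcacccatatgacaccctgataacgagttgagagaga
Sox12: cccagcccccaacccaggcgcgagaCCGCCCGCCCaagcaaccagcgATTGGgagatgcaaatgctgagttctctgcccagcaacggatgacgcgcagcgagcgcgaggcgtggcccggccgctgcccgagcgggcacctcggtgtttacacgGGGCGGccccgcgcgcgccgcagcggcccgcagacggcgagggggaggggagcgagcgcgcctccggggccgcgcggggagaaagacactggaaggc
Foxc1: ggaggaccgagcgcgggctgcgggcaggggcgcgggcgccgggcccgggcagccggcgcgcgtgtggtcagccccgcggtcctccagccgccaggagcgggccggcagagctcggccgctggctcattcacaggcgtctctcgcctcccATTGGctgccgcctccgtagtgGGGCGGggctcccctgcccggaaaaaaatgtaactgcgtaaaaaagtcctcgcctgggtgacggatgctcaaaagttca
Foxf2: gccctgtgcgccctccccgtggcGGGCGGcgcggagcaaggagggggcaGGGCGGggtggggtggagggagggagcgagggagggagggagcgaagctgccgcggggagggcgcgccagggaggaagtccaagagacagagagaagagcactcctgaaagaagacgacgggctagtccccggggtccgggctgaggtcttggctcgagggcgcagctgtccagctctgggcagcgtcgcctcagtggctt
The Sox4 window held 4 CCAAT letters and no GGGCGG. The Sox11 window held 1 and 2 of these, the Sox12 window 1 and 3, the Foxc1 window 1 and 1, and the Foxf2 window 0 and 2. Of all 32851 such windows 33.8% held CCAAT and 32.7% held GGGCGG. CG dinucleotides numbered 11 for Sox4, 17 for Sox11, 35 for Sox12, 29 for Foxc1 and 21 for Foxf2, against a median of 6 over all windows. The counts for Sox11 and Foxf2, the genes with 0 and 1 counts, thus lay above that for Sox4 and below those for Sox12 and Foxc1. Promoter entries matched 58 of the 85 members (68.2%), too few to compare detected with undetected members, so that check is void.

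Sox9, a SoxE factor known from cartilage, gonad and mammary progenitors, was the second SOX gene, at 43.2, 40.2 and 49.6 CPM (31.7 ± 3.34 TPM). Sox10, its neural crest relative, had 0 counts, and Sox8 had 1, 3 and 1. Taking the same floor, Sox9 was at least 187-fold higher than Sox10 and at least 126-fold higher than Sox2 per length. Sox1, Sox2 and Sox3, the factors of neural and pluripotent cells, all had 0 counts. Sox15, the SoxG gene, reached 2.04 ± 0.10 CPM from a short transcript and so stood at 6.99 ± 0.34 TPM, next to Sox12 (9.91 ± 0.97 TPM). Of the SoxD factors, which lack a transactivation domain, Sox13 (1.46 ± 0.30 TPM) and Sox5 (0.592 ± 0.160 TPM) were detected and Sox6 had 1 count. Sox14 and Sox30 had none, and Sox21 stayed under 1 CPM. Endothelial SoxF genes were near 0: Sox17 had none, Sox18 had 1 count in C2 and Sox7 had 1, 2 and 2. All 6 endothelial markers were below 1 CPM, and their sum was 0.340, 0.119 and 0.231 CPM.

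Of the 6 GATA genes, 2 were detected. Gata3 stood at 64.3, 58.9 and 64.0 CPM (46.3 ± 2.08 TPM). Gata4, known from heart and gut endoderm rather than from mammary epithelium, was the other, at 8.79, 8.62 and 9.90 CPM (6.89 ± 0.51 TPM). Its relatives Gata5 and Gata6 had 0 counts. Gata2, a blood and endothelial factor, had 5, 24 and 14 counts. Gata3 exceeded Gata2 by 8.02 ± 0.21 on the log2 scale per length (259-fold) and, taking the same floor, was at least 618-fold higher than Gata6. Gata4 lay 2.75 ± 0.09 below Gata3 on the same scale.

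The genes that act with these factors were counted from lists written with earlier results of these data known. For comparison, 33.8% of all genes were detected, and 51.7% of those that RefSeq lists as protein-coding under the same symbol. Differences of the lists from these shares, and the activity of the factors, were not tested. Every one of the 10 mitotic targets of FOXM1 was detected, with a median of 156 CPM; Cdc20 stood at 226 ± 4.47 CPM, Ccnb1 at 216 ± 5.01 CPM and Plk1 at 156 ± 7.13 CPM. All 7 genes upstream of FOXO factors were detected, with the kinase Akt1 highest (539.6 ± 26.8 CPM). Of 10 FOXO targets 9 were detected, among them the cell cycle inhibitor Cdkn1b (96.6 ± 0.97 CPM) and Txnip (32.7 ± 10.8 CPM), and Pdk4 had 3 counts. Of 7 GATA cofactors 5 were detected: Trps1 at 155 ± 2.83 CPM, Ldb1 at 69.3 ± 4.56 CPM, Lmo4 at 34.6 ± 3.78 CPM, Zfpm1 at 28.5 ± 1.76 CPM and Zfpm2 at 4.93 ± 0.24 CPM. The blood cofactors Lmo2 (0.754 ± 0.035 CPM) and Tal1 (4 counts) were not.

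Of the 9 genes that go with GATA3 and FOXA1 in luminal cells 4 were detected. These were the keratins Krt8 (1077 ± 80.8 CPM) and Krt18 (986 ± 65.1 CPM), Xbp1 (59.7 ± 2.32 CPM) and Esr1, which encodes estrogen receptor alpha (10.4 ± 1.31 CPM). The progesterone receptor gene Pgr had 1 count, Greb1 had 4, Prlr had 2, Muc1 had 19 and Elf5 had none. The cartilage targets of SOX9 were not expressed at 1 CPM: 0 of 5 were detected, with Col11a2 at 0.821 ± 0.324 CPM and Col2a1 at 0.307 ± 0.032 CPM. Of 6 targets of SOX10 2 were detected, with Mitf at 5.96 ± 0.44 CPM, and Dct and Ednrb had 0 counts. Of 6 partners of SOX2 Pou5f1 had 1 count and the others, Nanog among them, had none. All 7 corepressors and ubiquitin ligases of KLF factors were detected, with Ctbp1 at 246 ± 10.3 CPM, Hdac2 at 170.4 ± 3.55 CPM and Sin3a at 112 ± 6.06 CPM. Of the 9 SP factors, the closest relatives of the KLF family, 5 were detected: Sp1 at 179.5 ± 8.88 CPM, Sp3 at 146 ± 6.43 CPM, Sp2, Sp4 and Sp6, while Sp5 and Sp7 had 0 counts.

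Their spread between libraries was examined in the same way as that of the members. Of the 52 that passed the filter described below, 26 varied beyond counting noise (Poisson dispersion test, adjusted over all genes), beside 39.3% of all genes. They included 7 of the 10 FOXM1 targets and 4 of the 9 FOXO targets that were tested. The 39.3% covers genes of all levels past the filter, and the Poisson test picks up smaller differences at higher counts. It is therefore not a background matched for level. The edgeR F test against genes of similar level called 0, beside 0.0691% of all genes, and 6 had an unadjusted p under 0.05 (11.5%, beside 5.15% of all genes). These were Cenpf, the cartilage gene Col11a2 and the FOXO targets Txnip, Fbxo32, Ccng2 and Gadd45a. Txnip, an inhibitor of thioredoxin, stood at 23.3, 30.3 and 44.4 CPM. Fbxo32, a ubiquitin ligase of muscle wasting, stood at 3.97, 5.22 and 7.34 CPM, and Ccng2 at 38.5, 35.1 and 48.2 CPM. Txnip, Fbxo32 and Ccng2 were highest in C3, as was Col11a2 (0.908, 0.462 and 1.09 CPM). In contrast, Gadd45a (11.7, 19.6 and 12.6 CPM) and Cenpf (278, 330 and 286 CPM) were highest in C2. Foxo1, Foxo3 and Foxo4 did not pass the Poisson test, though each was also highest in C3, and Foxo6 was too low to be tested. The FOXO subfamily summed to 75.8, 78.1 and 81.4 CPM in C1, C2 and C3. A link between these genes and the spread of their targets was not tested.

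The libraries were then compared in the members themselves. A filter on low counts kept 43 of the 85 members (the 36 detected and Foxd2, Foxl1, Foxq1, Gata2, Klf1, Klf12 and Sox21) among 13026 genes. Of these 43, 16 varied by more than counting noise (Poisson dispersion test with Benjamini-Hochberg adjustment over all 13026 genes), or 37.2%, beside 39.3% of all genes tested, so the share of members was near the background. By family they were 4 of 19 Fox, 4 of 7 Sox, 7 of 14 Klf and 1 of 3 Gata genes. These shares were not matched for level either, and the difference between families was not tested. Leaving out C1 gave 11 of 43 such members (25.6%), beside 36.8% of all genes tested in the same way. Leaving out C2 gave 6 of 42 (14.3%), beside 13.8% of all genes, and leaving out C3 gave 5 of 43 (11.6%), beside 12.9%. Compared with the trend over all genes at their level, edgeR's quasi-likelihood F test called 0 of the 43 members, beside 0.0691% of all genes. At an unadjusted p under 0.05 it had 1 member, Sox9, beside 5.15% of all genes, and DESeq2 marked 0 members as dispersion outliers, beside 0.768% of all genes. The median ratio of a member's dispersion to the trend was 0.904, and that of all genes was 0.739.

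Sox9 had the strongest departure from counting noise, at 43.2, 40.2 and 49.6 CPM (adjusted p = 3.51e-12 in the Poisson test). C3 was 1.23-fold above C2, and in edgeR's F test the adjusted p was 0.919 (unadjusted 0.0363). Klf6 was also highest in C3 and lowest in C1 (adjusted p = 1.01e-09 in the same test). The same order held for Klf4, Klf2 and Sox5, with adjusted p of 0.00607, 0.00790 and 0.00943 in the Poisson test. These calls depended on the libraries used. With 1 library left out, Sox9 and Klf6 passed without C1 and without C2, but not without C3. Klf2 passed only without C1, and Klf4 and Sox5 only without C2. No member passed in every such fit. Klf2 stood at 3.19 CPM in C3 (95% interval 2.71 to 3.74) against 1.99 in C1 (1.38 to 2.76), a 1.61-fold range, and Sox5 at 3.66 (3.13 to 4.24) against 2.10 (1.48 to 2.89), a 1.74-fold range. Klf8 went the other way, at 2.84, 2.48 and 1.79 CPM. Foxm1 was lowest in C2, at 158 CPM against 171 and 167, as was Gata3, at 58.9 against 64.3 and 64.0. Sox4 lay at the other extreme: its values differed by 1.00-fold at most, and the test against counting noise gave an adjusted p of 0.984.

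**Figure D4:**
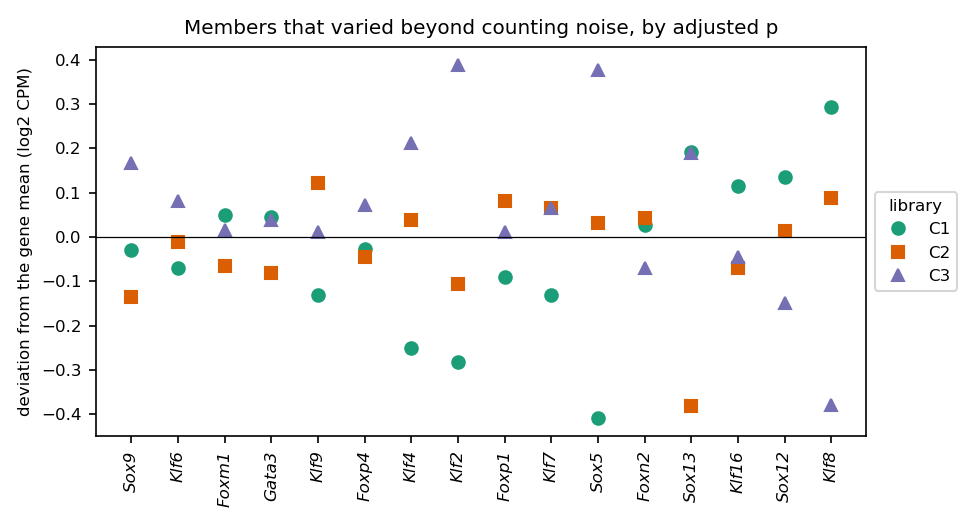
Log2 CPM (0.5 counts added) of each library minus the mean over libraries, for the 16 members that varied beyond counting noise, ordered by adjusted p. Sox5, Klf2 and Klf4 are lowest in C1 and highest in C3, Klf8 is the reverse, and Sox9 and Klf6, which have the smallest p, deviate by less than 0.2.

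Over the 16 members the highest value was in C3 for 7, in C1 for 5 and in C2 for 4. Over all 5118 genes that passed the Poisson test these shares were 40.3% for C3, 21.7% for C1 and 37.9% for C2. The lowest value was in C1 for 7 of the 16, beside 21.9% of all genes that passed; 5 of these 7 were Klf genes. Foxl1, which did not pass (adjusted p = 0.0833 in the Poisson test), reached 1.13 CPM in C1 (95% interval 0.693 to 1.75) against 0.567 in C2 (0.401 to 0.778) and 0.673 in C3 (0.460 to 0.949). C1 was also the library with the most leukocyte and macrophage signal: the 8 markers summed to 20.1 CPM there against 9.83 and 10.2 CPM, with Lyz2 at 9.42, 3.12 and 3.78 CPM, and 2 of the 8 were detected. Csf1r, Cd68, Emr1, Itgam, Tyrobp and Laptm5 were also highest in C1, with Emr1 at 1.76, 0.343 and 0.462 CPM. Ptprc, the marker of leukocytes in general, was the exception, with 1, 8 and 13 counts. Its low value in C1 thus rests on 1 count in the shallowest library. The part of such cells in the values of Foxl1 or of the members low in C1 was not tested. Among fibroblast markers Pdgfra alone was detected (18.3 ± 1.03 CPM), and Lum and Thy1 had 0 counts. In the Schwann and neural crest list 3 of 6 were detected, Erbb3 and Mbp among them, while S100b had 1 count.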

How the data were processed

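RNA was measured in 3 libraries of 4T1 cells with the genotype WISP2 OE. The deposited table holds unnormalized read counts, whole numbers for each gene symbol, which the authors made from their reads. The submitters' processing notes name CASAVA 1.7, BWA, STAR, HTSeq and the build mm9, with no role or order; the sources used here do not give the annotation, the strand setting or the treatment of reads that match several places. Every row names a gene. CPM was computed from library totals, and TPM from the union of exons of GENCODE M21 (85 of 85 members, 90.9% of rows). Spread was tested with edgeR 4.0.16 (limma 3.58.1, R 4.3.3; TMM, filterByExpr, intercept only, adjusted p under 0.05) and DESeq2 1.42.0, on scripts first tested on simulated data. Ratios added 0.5 counts.

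The members and lists were chosen with earlier results of these data known. Named are up to 8 members of each family with the highest TPM, preset pairs, the 6 smallest Poisson p, members beside the 1 CPM threshold and preset lineage factors. Other members are counted; those named to complete a subfamily or a count were chosen after their values were seen. One listed ciliated marker, Dnah5, was not analysed here. Some listed genes are not reported here.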

Additional observations from a re-analysis of the deposited data

How the results depend on the processing

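With 5 CPM as the threshold 3 Sox genes were detected in place of 6; the counts for the other families, and those under 0.5 CPM, 1 TPM, TMM or DESeq2 scaling or with any library left out, stayed within 1.5 times. The number of members varying beyond counting noise, 16 with all libraries, ranged from 5 to 11 when 1 library was left out, while over all genes such fits called 36.8% (C1 left out), 13.8% (C2) and 12.9% (C3). Without the filter on low counts it was 13 of 56, beside 26.5% of all genes. The F test called 0 members under each alternative run. With the longest transcript as the length, an alternative chosen after seeing the data, the family sums were 370.4 TPM for Fox, 319 for Klf, 143 for Sox and 51.5 for Gata, in the same order. No ratio between preset pairs changed sign. No paired analysis was possible because all libraries belong to 1 group. Levels of genes with under 10 counts are limited by depth, most of all in C1.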
